A study of Mus musculus with 15 samples.

Results

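The genes described here encode proteins that cut prohormones into hormones and proteins that fill the secretory granules of islet cells: the convertases Pcsk1 and Pcsk2, the carboxypeptidase Cpe, the granins Chga, Chgb, Scg2 and Scg3, and the smaller granule proteins Scg5, Pcsk1n and Resp18. These 10 genes were listed by symbol, and each was represented by the transcript cluster annotated to it alone that had the highest mean over 15 arrays. A cluster of that kind was found for 9 of the 10, out of 19938 genes in all, and each of the 9 had only 1 such cluster. Pcsk2 was not analysed here.

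Islet hormones are made as longer precursors. In the maturing granule the convertases cut them after pairs of basic residues, and carboxypeptidase E then removes the basic residues left at the cut ends. Beta cells use Pcsk1, with Pcsk2, to turn proinsulin into insulin, whereas alpha cells rely mainly on Pcsk2 to turn proglucagon into glucagon. Granins are acidic proteins that aggregate in the Golgi apparatus and help to form the granule, and they are used as general markers of endocrine cells.

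Islet cell RNA of the mouse was measured on a whole-transcript array (Affymetrix Mouse Gene 1.0 ST). By their titles, 5 samples were beta cells, 5 alpha cells and 5 Pdx1-deficient cells. All mice had a mixed B6 and BALB/C background. The labels give the beta samples the genotype glucagon-Cre with RosaYFP, and the alpha samples RIP-CreER with 1 floxed Pdx1 allele (Pdx1fl/+) and RosaYFP. The glucagon promoter is active in alpha cells and the rat insulin promoter (RIP) in beta cells, so these genotype labels run against the titles, and groups were taken from the titles. Both control groups were sorted as YFP+ cells from mice 2 months old, and the third group is labelled only as Pdx1-deficient (PKO) and was taken 5 days after tamoxifen. The series title names the question, which is whether the transcription factor Pdx1 holds back an alpha-cell program in beta cells. Whether tamoxifen was given to the controls, whether animals were pooled and whether each sample is its own animal is not stated in the labels. A p-value therefore measures only how far these samples spread, which could be technical spread.

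Values are log2 signals, and 3 arrays need naming first. Pdx1 read 8.85 to 9.33 in beta arrays, 7.27 to 8.21 in alpha arrays and 6.53 to 7.83 in Pdx1-deficient replicates 2 to 5, but 9.12 in the array labelled Pdx1-deficient replicate 1, which went against its label. The mean of 8 measured alpha markers of 11 listed was 7.91 to 8.13 in beta arrays and 9.22 to 9.36 in alpha replicates 1, 3, 4 and 5, but 8.40 in the array labelled alpha replicate 2, next to 8.36 to 8.62 in Pdx1-deficient arrays. The mean of 10 measured beta markers of 11 was 10.26 to 10.56 in beta arrays and 9.09 to 9.65 in alpha arrays. In Pdx1-deficient arrays it was 8.97 to 9.62 for replicates 2 to 5 and 10.51 for replicate 1. Ins2 was at 11.86 to 12.09 in alpha arrays and at 11.77 to 11.98 in beta arrays, so its signal did not separate these groups. The highest value in the data was 13.45, and whether signals this near it still follow RNA amounts was not tested. That holds also for Cpe, Chga and Scg3, which read 11.84 to 12.16, 11.96 to 12.74 and 11.66 to 12.26 over all arrays. Gcg was at 12.49 in alpha replicate 2 and 12.74 to 12.87 in the other alpha arrays, beside 12.15 to 12.51 in beta arrays. The mean of 10 measured acinar markers of 12 was 12.05 in alpha replicate 5 and 5.95 to 7.43 in all other arrays. The arrays labelled Pdx1-deficient 1 and alpha 2 are called the doubtful arrays below, and results that rest on them are given with and without them. Tests are limma fits with Benjamini-Hochberg adjustment over all 19938 genes, and a gene is said to rise or fall at an adjusted p under 0.05.

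Cells titled alpha had a lower Pcsk1 signal than beta cells and, by a smaller log2 difference, lower signals of 2 granins. None of the 9 genes passed the threshold between Pdx1-deficient and beta cells. The 2 granins read near the height of Ins2, where it was not tested whether signals still follow RNA amounts. Pcsk1 fell 4.84-fold in alpha compared with beta arrays, Chga fell 1.41-fold and Scg3 fell 1.27-fold. That is 3 of 9 genes lower and 0 higher, where 4.04% of all genes passed in either direction, 3.15% lower and 0.893% higher. An unadjusted p under 0.05 was found for 6 of 9, where 20.7% of all genes had one. For Pdx1-deficient against beta arrays, fitted with the alpha arrays, 0 of 9 passed by limma and 0 had an unadjusted p under 0.05. Of all genes 1.09% passed (0.928% lower and 0.16% higher) and 21.8% had such a p. Pdx1, the deleted gene, did not pass in that fit either, at -1.39 (limma adjusted p = 0.0575). It passed without Pdx1-deficient replicate 1 (limma adjusted p = 0.00617). Some markers of other cells also differed between alpha and beta cells, with 0 called in the acinar, duct, endothelial and leukocyte lists. The mean of 7 stromal markers was 6.11 to 6.49 in alpha replicates 1, 3, 4 and 5, 5.65 in alpha replicate 2, 5.57 to 5.86 in beta and 5.87 to 6.13 in Pdx1-deficient arrays, and 1 of the 7 was called higher in alpha than in beta cells. The mean of 6 delta and PP cell markers was 9.93 to 10.65 in alpha, 9.85 to 10.36 in beta and 9.51 to 10.20 in Pdx1-deficient arrays, with 1 of 6 called higher in alpha cells. Their part in the lower Pcsk1 and granin values was not tested. In a bulk sample, fewer cells of a type and less RNA per cell cannot be told apart.

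**Figure D1:**
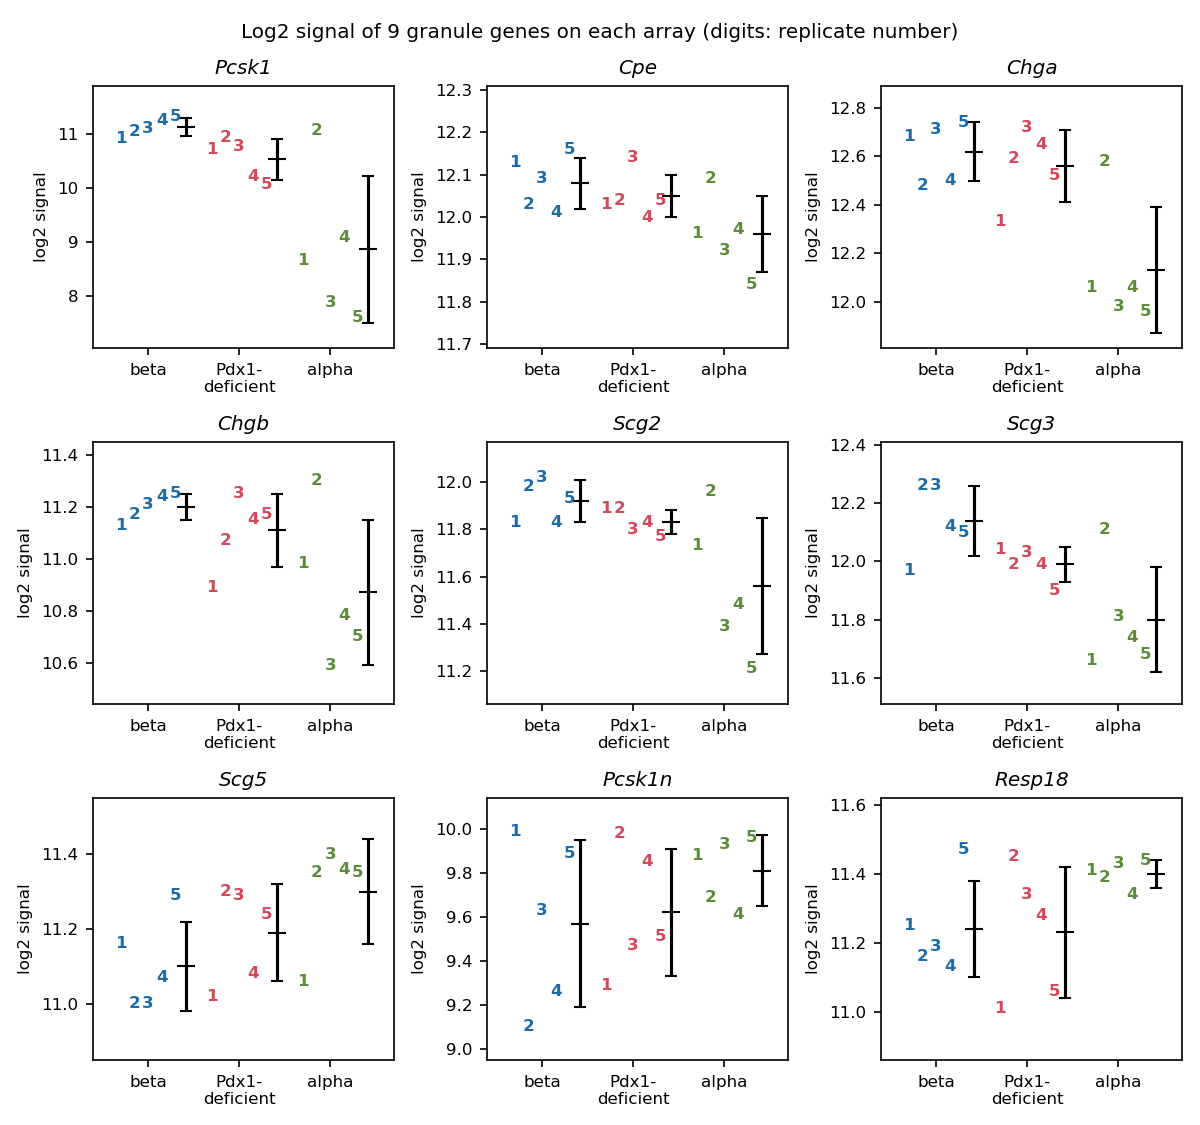
Log2 signal (y axis, a different range in each panel) of the 9 measured genes by group; digits are replicate numbers, and the bar with whiskers is the mean ± SD of 5 arrays. In the panels of Pcsk1, Chga, Chgb, Scg2, Scg3 and Cpe, alpha replicate 2 is the highest alpha array and lies within or above the beta range.

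Pcsk1 encodes prohormone convertase 1/3, which makes the first cut in proinsulin. In beta arrays 1 to 5 its log2 signal was 10.92, 11.05, 11.10, 11.25 and 11.33. In Pdx1-deficient arrays 1 to 5 it was 10.71, 10.93, 10.76, 10.21 and 10.06. In alpha arrays 1 to 5 it was 8.66, 11.07, 7.87, 9.08 and 7.59. All Pdx1-deficient arrays except replicate 2 lay below every beta array, and alpha replicate 2 alone among alpha arrays lay within the beta range, so the 5 arrays of each group overlapped in every comparison of this gene. The group means were 11.13 ± 0.16, 10.53 ± 0.38 and 8.86 ± 1.37 (SD, n = 5 each) in beta, Pdx1-deficient and alpha arrays.

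The difference of Pcsk1 between alpha and beta arrays was -2.27 on the log2 scale (SE 0.47, limma adjusted p = 0.017). It was lower in 4 of 5 alpha arrays than in any beta array. Without alpha replicate 2 the alpha mean was 8.30 ± 0.69 (SD, n = 4) and the difference was -2.83, a 7.10-fold fall (limma adjusted p = 6.15e-05). Without alpha replicate 3 the difference was -2.03 and the call was lost (limma adjusted p = 0.0502). Without alpha replicate 5, the array with high acinar signal, it was -1.96 and passed (limma adjusted p = 0.0411). Over the 24 alternatives tried the adjusted p ran from 6.15e-05 to 0.0502.

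Pdx1-deficient and beta arrays differed by -0.60 in Pcsk1, with a 95% interval from -1.60 to 0.41 (limma adjusted p = 0.445). The fit shares 1 estimate of spread over the 3 groups, and the SD of Pcsk1 was largest in the alpha arrays. With only Pdx1-deficient and beta arrays fitted the difference was also -0.60 (SE 0.17, 95% interval -0.97 to -0.23, limma unadjusted p = 0.0045). It did not pass there (limma adjusted p = 0.111). Without both doubtful arrays the difference was -0.64, its 95% interval of -1.23 to -0.05 no longer included 0, and it still did not pass (limma adjusted p = 0.183). The difference lay, over all 24 alternatives, between -0.69 and -0.42. Replicates 4 and 5, with the lowest Pcsk1 of the group, also had the lowest beta marker means of that group, 8.97 and 9.09. These arrays differed over all genes too: 39.5% and 39.7% of genes lay in the beta range, beside 61.7% to 65.6% in replicates 1 to 3. Their mean correlations with beta arrays were 0.925 and 0.931, beside 0.958 to 0.964. The part of the markers and of these wider differences in the Pcsk1 values was not tested.

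Pcsk1n encodes proSAAS, a granule peptide precursor known as an inhibitor of Pcsk1. Its log2 signal was 9.99, 9.10, 9.63, 9.26 and 9.89 in beta arrays, 9.29, 9.98, 9.47, 9.85 and 9.51 in Pdx1-deficient arrays, and 9.88, 9.69, 9.93, 9.61 and 9.96 in alpha arrays. All 3 groups overlapped, and the SD of 0.38 among beta arrays was larger than any difference between group means. Alpha and beta arrays differed by 0.24 (95% interval -0.13 to 0.61, limma adjusted p = 0.449), and Pdx1-deficient and beta arrays by 0.04 (-0.32 to 0.41, limma adjusted p = 0.887).

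Cpe encodes carboxypeptidase E, which trims the basic residues that convertase cuts leave. Its 15 arrays spanned the narrowest range of the 9 genes. Beta arrays read 12.13, 12.03, 12.09, 12.01 and 12.16, Pdx1-deficient arrays 12.03, 12.04, 12.14, 12.00 and 12.04, and alpha arrays 11.96, 12.09, 11.92, 11.97 and 11.84. Alpha replicates 1, 3, 4 and 5 lay just below every beta array, and replicate 2 lay among them. The difference of alpha from beta arrays was -0.13 (95% interval -0.27 to 0.02, limma adjusted p = 0.295), and that of Pdx1-deficient from beta arrays was -0.03 (-0.18 to 0.11, limma adjusted p = 0.766).

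Chga encodes chromogranin A, the founding member of the granins. Its log2 signal was 12.68, 12.48, 12.71, 12.50 and 12.74 in beta arrays. In Pdx1-deficient arrays it was 12.33, 12.59, 12.72, 12.65 and 12.52, and in alpha arrays 12.06, 12.58, 11.98, 12.06 and 11.96. Pdx1-deficient replicates 2 to 5 lay within the beta range, replicate 1 lay below it, and alpha arrays lay below it except replicate 2. The fall from 12.62 ± 0.12 in beta to 12.13 ± 0.26 in alpha arrays (SD, n = 5 each) was 0.49 on the log2 scale (SE 0.12, limma adjusted p = 0.0316). Without alpha replicate 2 the difference was -0.61 (limma adjusted p = 0.00148). The call was lost without beta replicate 1, 3, 4 or 5 and without alpha replicate 1, 3, 4 or 5, where the adjusted p lay between 0.0504 and 0.0848. It was also lost when alpha and beta arrays alone were fitted (limma adjusted p = 0.0552) and with the replicate number as a block (0.0615), and it passed in 14 of all 24 alternatives.

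Chgb encodes chromogranin B. In beta arrays it read 11.13, 11.17, 11.21, 11.24 and 11.25, in Pdx1-deficient arrays 10.89, 11.07, 11.25, 11.15 and 11.17, and in alpha arrays 10.98, 11.30, 10.59, 10.78 and 10.70. Alpha replicate 2 read above every beta array and the other 4 alpha arrays read below every beta array. The difference between alpha and beta arrays of -0.33 did not pass over all arrays (SE 0.12, limma adjusted p = 0.125) and passed without alpha replicate 2, at -0.44 (limma adjusted p = 0.0125).

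Scg2 encodes secretogranin II, the precursor of the peptide secretoneurin. In beta arrays it read 11.83, 11.98, 12.02, 11.83 and 11.93, in Pdx1-deficient arrays 11.89, 11.89, 11.80, 11.83 and 11.77, and in alpha arrays 11.73, 11.96, 11.39, 11.48 and 11.21. Its alpha arrays had the same order against the beta range as those of Chga, with replicate 2 inside and the others below. Alpha and beta arrays differed by -0.36 (SE 0.12, limma adjusted p = 0.0916), and by -0.46 without alpha replicate 2 (limma adjusted p = 0.0104).

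Scg3 encodes secretogranin III, which binds chromogranin A and holds it to the granule membrane. In beta arrays it read 11.97, 12.26, 12.26, 12.12 and 12.10, in Pdx1-deficient arrays 12.04, 11.99, 12.03, 11.99 and 11.90, and in alpha arrays 11.66, 12.11, 11.81, 11.74 and 11.68. It fell by 0.34 on the log2 scale from 12.14 ± 0.12 in beta to 11.80 ± 0.18 in alpha arrays (SD, n = 5 each; SE 0.09, limma adjusted p = 0.0488). This call held by a narrow margin: among the 15 arrays left out in turn it passed only without alpha replicate 2 (-0.42, limma adjusted p = 0.00557), and in the others the adjusted p ran up to 0.11. It passed in 4 of all 24 alternatives. The Pdx1-deficient mean of 11.99 lay between the means of the control groups, but replicates 1 to 4 lay within the beta range and only replicate 5 below it. The difference of Pdx1-deficient from beta arrays was -0.15 (95% interval -0.35 to 0.04, limma adjusted p = 0.323), the lowest adjusted p of the 9 genes in that comparison.

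The promoters of Pcsk1, Chgb, Scg2 and Chga are shown because they hold a cAMP response element or a sequence like it, and not for the size of their difference: of these, Chgb and Scg2 did not pass over all arrays, and Scg3, which did, is not shown. The RefSeq promoter table (build GRCm38.p6) held a window of 300 bases, 250 before the transcription start and 50 after it, for 9 of the 10 listed genes, all but Cpe. The cAMP response element TGACGTCA, bound by CREB and related factors that act in many secretory cells, reads the same on both strands. It was present in the windows of 3 of the 9 genes, Pcsk1, Chgb and Scg2, and in 1.79% of all 32851 windows. It began 78 bases before the start in Pcsk1, 72 in Chgb and 68 in Scg2. The window of Chga held TGACGTAA, which began 44 bases before its start; that motif was chosen after the window was seen, and it or its reverse complement TTACGTCA was present in 0.499% of all windows. The shorter motif TGACG, or CGTCA on the other strand, which lies inside both, was present in 7 of the 9 windows and in 20.8% of all. The homeodomain core TAATTA, which Pdx1 and many other factors can bind and which reads the same on both strands, was present in 0 of the 9 and in 5.29% of all. A match describes the letters and does not show a binding site. The 150 bases before each start are printed 5′ to 3′ on the strand of the gene, with the motif in capitals, for Pcsk1 (chr13:75089707-75089856, plus strand), Chgb (chr2:132781492-132781641, plus strand), Scg2 (chr1:79440027-79440176, minus strand) and Chga (chr12:102554791-102554940, plus strand).
Pcsk1: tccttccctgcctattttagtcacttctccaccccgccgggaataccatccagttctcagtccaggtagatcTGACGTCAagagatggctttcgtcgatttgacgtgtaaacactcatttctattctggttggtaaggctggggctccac
Chgb: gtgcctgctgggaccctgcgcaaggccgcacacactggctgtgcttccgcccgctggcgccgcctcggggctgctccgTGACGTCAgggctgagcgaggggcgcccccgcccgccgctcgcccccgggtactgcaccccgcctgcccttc
Scg2: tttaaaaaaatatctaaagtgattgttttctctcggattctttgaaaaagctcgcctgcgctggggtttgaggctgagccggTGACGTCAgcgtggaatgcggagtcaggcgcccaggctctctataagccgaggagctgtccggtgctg
Chga: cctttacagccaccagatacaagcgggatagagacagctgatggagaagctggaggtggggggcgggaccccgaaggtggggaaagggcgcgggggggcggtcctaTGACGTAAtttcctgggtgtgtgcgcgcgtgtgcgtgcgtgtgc

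These 4 genes were lower than all beta arrays in 4 of 5 alpha arrays, as were Scg3 and Cpe. In each of these alpha arrays, replicates 1, 3, 4 and 5, 19.7% to 22.2% of all genes were lower than all beta arrays. Scg3 has the shorter motif in its window and neither of the longer ones. Cpe had no window in the table, and Scg5, with the shorter motif, had a difference of the opposite sign. Whether the motifs have a part in any of these differences was not tested.

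Scg5 encodes 7B2, the chaperone that Pcsk2 needs to mature, and Resp18 encodes an endocrine protein of the secretory pathway. Scg5 read 11.16, 11.00, 11.00, 11.07 and 11.29 in beta arrays, 11.02, 11.30, 11.29, 11.08 and 11.24 in Pdx1-deficient arrays, and 11.06, 11.35, 11.40, 11.36 and 11.35 in alpha arrays. Alpha replicates 2 to 5 lay above every beta array and replicate 1 among them. Resp18 read 11.25, 11.16, 11.19, 11.13 and 11.47 in beta arrays, 11.01, 11.45, 11.34, 11.28 and 11.06 in Pdx1-deficient arrays, and 11.41, 11.39, 11.43, 11.34 and 11.44 in alpha arrays. Its alpha arrays were the most alike of the 3 groups, with an SD of 0.04, and lay within the beta range. The alpha minus beta differences had the opposite sign to those of the granins, at 0.20 for Scg5 (95% interval 0.01 to 0.40, limma adjusted p = 0.227) and 0.17 for Resp18 (-0.03 to 0.36, limma adjusted p = 0.328), and neither passed.

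**Figure D2:**
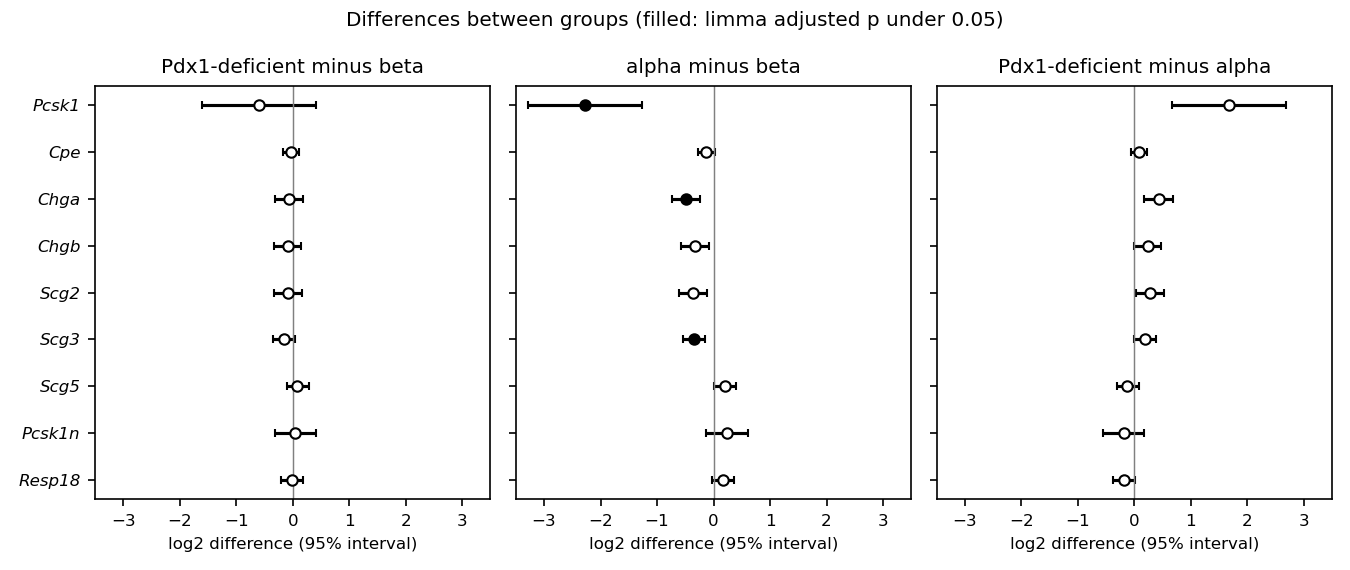
Log2 differences between groups with 95% intervals from the limma fit (x axis, not adjusted for the number of genes) for the 9 measured genes (rows); filled points passed an adjusted p under 0.05. Pcsk1, Chga and Scg3 are filled in the comparison of alpha with beta cells, and no point is filled in the other comparisons.

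For the 8 genes other than Pcsk1, differences of Pdx1-deficient from beta arrays ran from -0.15 to 0.08, and all bounds of their 95% intervals lay between -0.35 and 0.41. Of the 9 genes 7 had a difference below 0 and 2 above, and all 9 intervals included 0 in the fit of all 3 groups. The signs are not firm: after quantile normalization Cpe, Chgb and Resp18 were above 0, at 0.03, 0.06 and 0.13. The median difference was -0.06, beside 0.06 over all genes. Leaving out the doubtful alpha array, the doubtful Pdx1-deficient array or both, 0 of 9 passed by limma, where 1.34%, 2.75% and 3.14% of all genes did. A missed threshold does not show equal levels: the differences of alpha from beta cells in Scg3 and Chgb, -0.34 and -0.33, lay inside the Pdx1-deficient intervals of these genes, -0.35 to 0.04 and -0.34 to 0.15.

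Against alpha cells, Pdx1-deficient cells had higher means of the convertase Pcsk1 and of Chga, which passed only without alpha replicate 2. Pcsk1 was higher by 1.68 (95% interval 0.67 to 2.68, limma adjusted p = 0.394) and Chga by 0.43 (0.18 to 0.68, limma adjusted p = 0.376). By limma 0 of 9 genes passed, 3 had an unadjusted p under 0.05 (Pcsk1, Chga and Scg2), and 0.0% of all genes passed (6.0% had an unadjusted p under 0.05). Without alpha replicate 2, 2 of 9 passed, where 0.727% of all genes did: Pcsk1 was 4.70-fold higher in Pdx1-deficient cells (2.23 on the log2 scale, SE 0.27, limma adjusted p = 0.000774) and Chga 1.46-fold (0.55, SE 0.09, limma adjusted p = 0.0101). Without both doubtful arrays the values were 2.19 (limma adjusted p = 0.00208) and 0.60 (limma adjusted p = 0.00391), where 0.888% of all genes passed. Chgb missed the threshold there at 0.40 (limma adjusted p = 0.0652), and Scg2 and Scg3 differed by 0.37 and 0.25 (limma adjusted p = 0.178 and 0.314).

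Array by array, the split ran through the alpha group. In alpha replicates 1, 3, 4 and 5 the same 6 genes (Pcsk1, Cpe, Chga, Chgb, Scg2 and Scg3) read below all 5 beta arrays, while 19.7% to 22.2% of all genes did so in these arrays. In alpha replicate 2, 0 of 9 did, 7 lay within the beta range and 2 lay above it. Of all genes 20.7% lay below the range in that array too, 64.2% within it and 15.1% above it. In Pdx1-deficient arrays 1 to 5 the number of the 9 genes below the beta range was 4, 1, 2, 2 and 4. Of all genes 15.9%, 18.7%, 18.2%, 21.0% and 20.1% lay below it in these arrays. Which of the 9 genes lay below it was not the same from array to array. Pcsk1 was below it in 4 of the 5, Chgb, Scg2 and Resp18 in 2 each, and Cpe, Chga and Scg3 in 1 each. Over all arrays the ranges of alpha and beta cells were apart in 0 of 9 genes, beside 6.34% of all genes. The number with ranges apart was also 0 of 9 for Pdx1-deficient against beta and against alpha arrays, beside 5.96% and 0.637%.

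**Figure D3:**
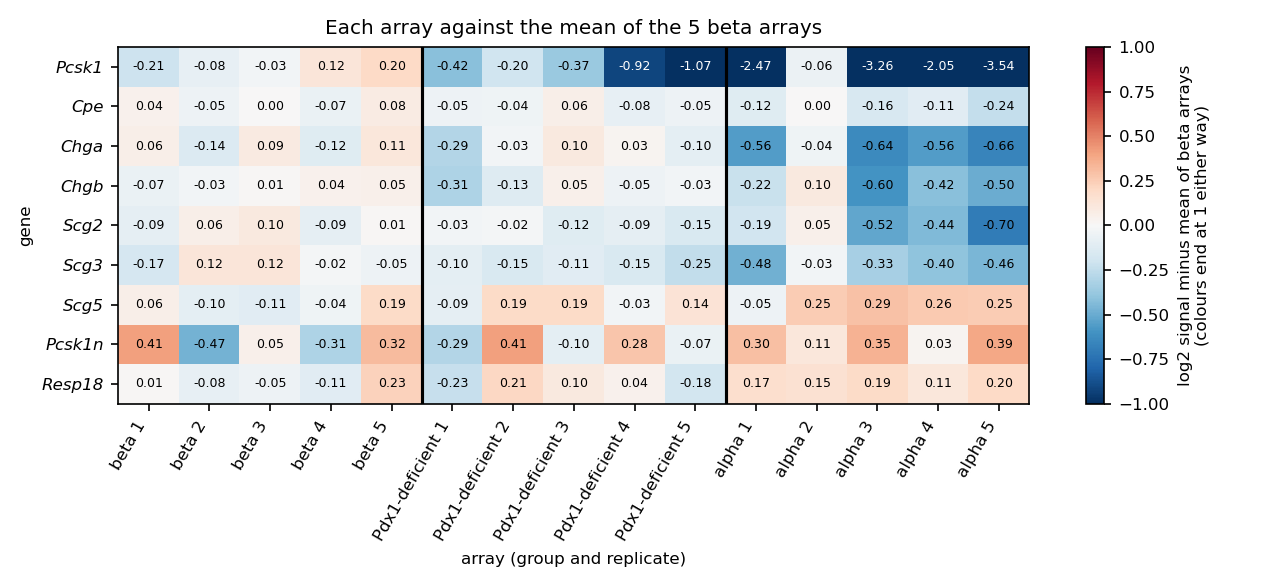
Each array's log2 signal minus the mean of the 5 beta arrays, for 9 genes (rows) and 15 arrays (columns, with lines between groups); colours end at 1 either way and the numbers give the value. The column of alpha replicate 2 runs from -0.06 to 0.25, where the Pcsk1 row reads -2.05 to -3.54 in the other alpha arrays.

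Markers that are not among the 9 genes place alpha replicate 2 as follows. Its Ndst4 signal, an alpha marker, was 6.50, beside 8.27 to 8.79 in the other alpha arrays, 5.73 to 7.23 in Pdx1-deficient and 4.24 to 4.84 in beta arrays. Of the other alpha markers, Gcg, Ttr, Slc7a2 and Etv1 lay within the Pdx1-deficient range in it. They read 12.49, 12.23, 9.43 and 9.21, beside 12.34 to 12.79, 11.93 to 12.30, 9.33 to 9.74 and 8.15 to 9.23. Irx1, Irx2 and Pou3f4 were lower in it than in every Pdx1-deficient array. Irx1 was 5.61, beside 5.68 to 6.17 in Pdx1-deficient and 5.64 to 5.92 in beta arrays. Irx2 was 6.93, beside 7.01 to 7.25 and 6.72 to 7.04, and Pou3f4 was 4.76, beside 4.89 to 5.14 and 4.77 to 5.03. For these 3 transcription factor genes alpha replicate 2 thus lay within or just below the beta range. Its Slc2a2 signal, the beta-cell glucose transporter, was 7.85, which lay within 6.93 to 8.76 in the other alpha arrays and also within 6.71 to 10.46 in Pdx1-deficient arrays. Its mean correlation over all clusters was 0.961 with beta, 0.949 with alpha and 0.956 with Pdx1-deficient arrays. The part of these differences in its granin and Pcsk1 values was not tested.

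How firmly each difference between alpha and beta cells stood was read from leaving out each of the 15 arrays in turn. Pcsk1 passed in 14 of 15, Chga in 7, and Scg3, Chgb and Scg2 in 1 each, which was the fit without alpha replicate 2. Without it 5 of 9 genes fell and 0 rose, where 7.17% of all genes passed, and without both doubtful arrays the count was also 5, where 7.15% passed. In every one of the 24 alternatives the differences of these 5 genes were below 0.

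**Figure D4:**
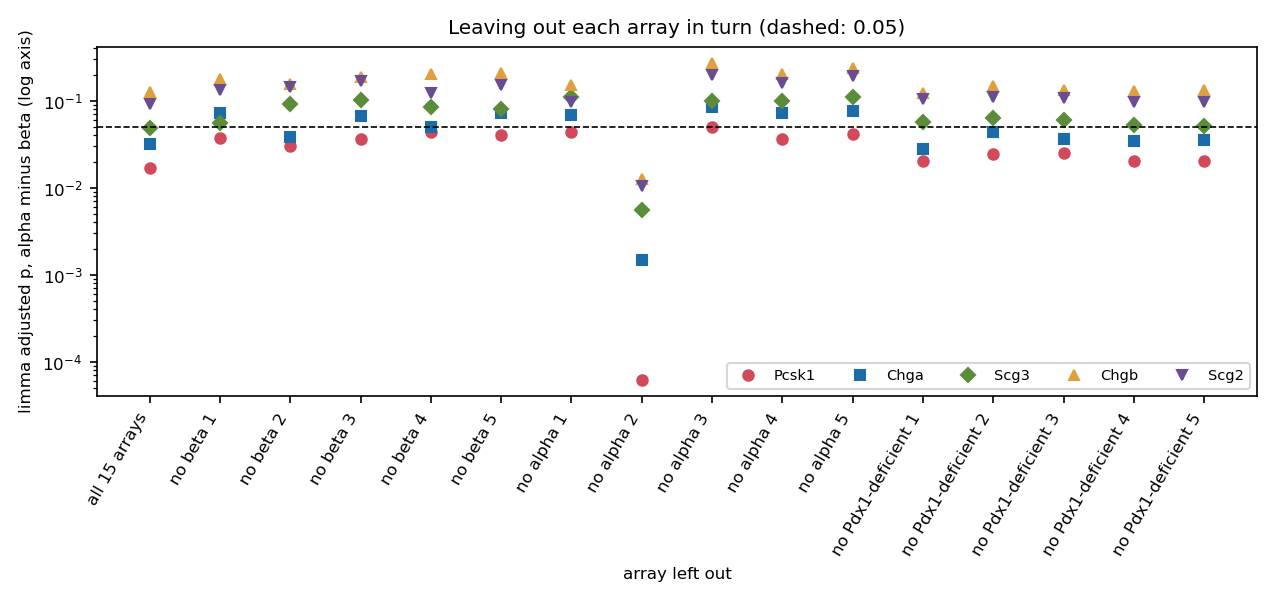
Adjusted p of limma (y axis, log scale) for alpha minus beta cells, for 5 genes, with all 15 arrays and with each array left out (x axis); the dashed line is 0.05. All 5 genes lie below the line without alpha replicate 2, where Pcsk1 reaches 6.15e-05, and Pcsk1 reaches the line at 0.0502 without alpha replicate 3.

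Only Pcsk1 had group means that differed by at least 1 on the log2 scale, and the genes most like it over the 15 arrays were found by the root mean square difference after each gene was centred on its own mean. The nearest was Frzb, a secreted Wnt inhibitor gene, at 0.36, followed by the villin gene Vil1 at 0.46 and Hadh, a fatty acid oxidation enzyme gene, at 0.49. The median over all genes was 1.25, and Pcsk1 itself varied by 1.21 around its mean. Frzb read 10.53 ± 0.16 in beta, 10.24 ± 0.24 in Pdx1-deficient and 8.70 ± 1.29 in alpha arrays (SD, n = 5 each), with 10.60 in alpha replicate 2 and 7.10 to 9.02 in the others. In the same order of groups Vil1 read 9.05 ± 0.25, 8.07 ± 0.45 and 6.92 ± 0.9, with 8.38 in alpha replicate 2. Hadh read 10.11 ± 0.22, 9.91 ± 0.32 and 8.40 ± 1.31, with 10.06 in alpha replicate 2. The 3 genes were chosen for likeness to Pcsk1 over these same arrays, so a high alpha replicate 2 in each follows from the choice.

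The other genes of prohormone processing and granules were read from 6 lists with 62 genes, of which 60 were measured. In Pdx1-deficient compared with beta cells 3 of 60 fell and 0 rose, and the median difference was -0.32, where 1.09% of all genes passed and their median was 0.06. In alpha compared with beta cells 14 of 60 fell and 0 rose, and the median difference was -0.36, where 4.04% of all genes passed and their median was 0.04. The Pdx1-deficient and alpha comparisons share the 5 beta arrays. The distribution of signals within an array also differed between groups. The lower quartile of an array was 4.55 to 4.66 for beta, 4.66 to 4.76 for alpha and 4.67 to 4.80 for Pdx1-deficient cells. In that order the upper quartile ran over 7.34 to 7.40, 7.24 to 7.36 and 7.24 to 7.365. Once signals were quantile normalized again, 0 of 60 passed for Pdx1-deficient and 5 of 60 for alpha cells. How far this moved the list medians was not tested. Between Pdx1-deficient and alpha cells 0 of 60 passed by limma and 6 had an unadjusted p under 0.05, where 0.0% and 6.0% of all genes did.

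The granule acidification list holds subunits and partners of the proton pump that lowers the pH at which convertases work. In alpha compared with beta cells 6 of its 10 genes fell, where 4.04% of all genes passed, among them Ostm1 (-0.92, limma adjusted p = 0.00549) and the pump accessory genes Atp6ap1 (-0.83, limma adjusted p = 0.0203) and Atp6ap2 (-0.81, limma adjusted p = 0.0215). In Pdx1-deficient cells 1 of 10 fell, where 1.09% of all genes passed. This was Ostm1, from 7.08 ± 0.15 to 6.26 ± 0.26 (SD, n = 5 each; -0.82, SE 0.15, limma adjusted p = 0.0316). Ostm1 is best known as the partner of a lysosomal chloride transporter and not as a pump subunit. Its 5 Pdx1-deficient arrays read 6.26, 6.41, 6.61, 6.10 and 5.95 and its beta arrays 7.05, 7.09, 6.89, 7.31 and 7.05, without overlap. The ranges of these groups were apart in 8 of the 60 listed genes, beside 5.96% of all genes. The list medians were -0.52 in alpha and -0.50 in Pdx1-deficient cells. Without both doubtful arrays, 4 of 10 fell in Pdx1-deficient and 7 of 10 in alpha cells, where 3.14% and 7.15% of all genes passed.

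The granule budding and maturation list holds genes for sorting and membrane trafficking at the Golgi apparatus. In Pdx1-deficient cells 2 of its 12 genes fell, where 1.09% of all genes passed. They were Ica1l, a relative of the diabetes autoantigen gene Ica1 (-1.17, SE 0.22, limma adjusted p = 0.0316), and Hid1, which is needed for dense-core granule formation (-1.05, SE 0.22, limma adjusted p = 0.0367). In alpha cells 3 of 12 fell, where 4.04% of all genes passed. They were Ica1l (-1.31, limma adjusted p = 0.00698), Hid1 (-0.88, limma adjusted p = 0.0408) and Tmem163 (-0.88, limma adjusted p = 0.0436), which encodes a zinc transporter of vesicles. Hid1 in Pdx1-deficient arrays read 7.59, 7.96, 8.27, 7.24 and 7.12 and in beta arrays 8.63, 8.20, 8.42, 8.97 and 9.23, so that replicate 3 overlapped the lowest beta array. Ica1l read 6.86, 6.20, 5.89, 5.68 and 5.71 in Pdx1-deficient arrays, with replicate 1 the highest and above the lowest beta array at 6.80.

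Of 12 other granule lumen and membrane proteins 4 fell in alpha cells, where 4.04% of all genes passed. Among them were Nucb2, the precursor gene of nesfatin-1 (-1.07, limma adjusted p = 0.0124), Cyb561, a granule electron carrier gene (-0.93, limma adjusted p = 0.0128), and Gaa, a lysosomal glycosidase gene rather than a granule marker (-0.84, limma adjusted p = 0.0476). In Pdx1-deficient cells 0 of 12 passed by limma and 6 had an unadjusted p under 0.05, where 1.09% and 21.8% of all genes did. Sytl4, a granule docking gene, differed by -1.40 (limma adjusted p = 0.137) and Gaa by -0.87 (limma adjusted p = 0.0659). Without both doubtful arrays, Sytl4 and Nucb2 fell in Pdx1-deficient cells, with differences of -1.86 and -0.57 (limma adjusted p = 0.0296 and 0.0345). Nucb2 read 11.42 in alpha replicate 2 and 9.96 to 10.51 in the other alpha arrays. Its 5 Pdx1-deficient arrays read 10.85 to 11.12, below every beta array at 11.20 to 11.70. Over all arrays Nucb2 did not pass in that comparison (-0.55, limma adjusted p = 0.156). The ranges of these groups were apart in 8 of the 60 listed genes, Nucb2 and Gaa among them, beside 5.96% of all genes. Those of Chga, Chgb, Scg2 and Scg3 overlapped. Without alpha replicate 2, Nucb2 was the 1 listed gene that passed between Pdx1-deficient and alpha cells (0.75, limma adjusted p = 0.0099).

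Of 14 end-trimming and modifying enzymes 1 fell in alpha cells, where 4.04% of all genes passed. This was Sec11c, a signal peptidase subunit gene (-1.12, SE 0.28, limma adjusted p = 0.0388). In Pdx1-deficient cells 0 of 14 passed by limma and 8 had an unadjusted p under 0.05, where 1.09% and 21.8% of all genes did. The largest differences were in Sec11c (-0.92, limma adjusted p = 0.104) and Qpctl, a glutaminyl cyclase gene (-0.63, limma adjusted p = 0.138). Of the 6 measured convertases other than Pcsk1 and Pcsk2, 0 passed by limma in either comparison, with 0 and 2 at an unadjusted p under 0.05 in Pdx1-deficient and alpha cells, where 21.8% and 20.7% of all genes had one. Furin, the convertase of the general secretory pathway, differed by -0.60 in alpha cells (limma adjusted p = 0.0943) and by -0.02 in Pdx1-deficient cells (limma adjusted p = 0.953). Mbtps1, the site-1 protease gene, differed by -0.39 and -0.40 (limma adjusted p = 0.268 and 0.245).

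The 6 measured hormone genes, which encode what these proteins process or store, had 0 calls by limma in either comparison, with 2 at an unadjusted p under 0.05 in alpha and 0 in Pdx1-deficient cells, where 20.7% and 21.8% of all genes had one. Gcg, the glucagon gene, differed by 0.39 between alpha and beta cells (limma adjusted p = 0.0638) and rose by 0.45 without alpha replicate 2 (limma adjusted p = 0.025). Sst, the somatostatin gene of delta cells, differed by -0.47 between Pdx1-deficient and beta cells (limma adjusted p = 0.361).

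**Figure D5:**
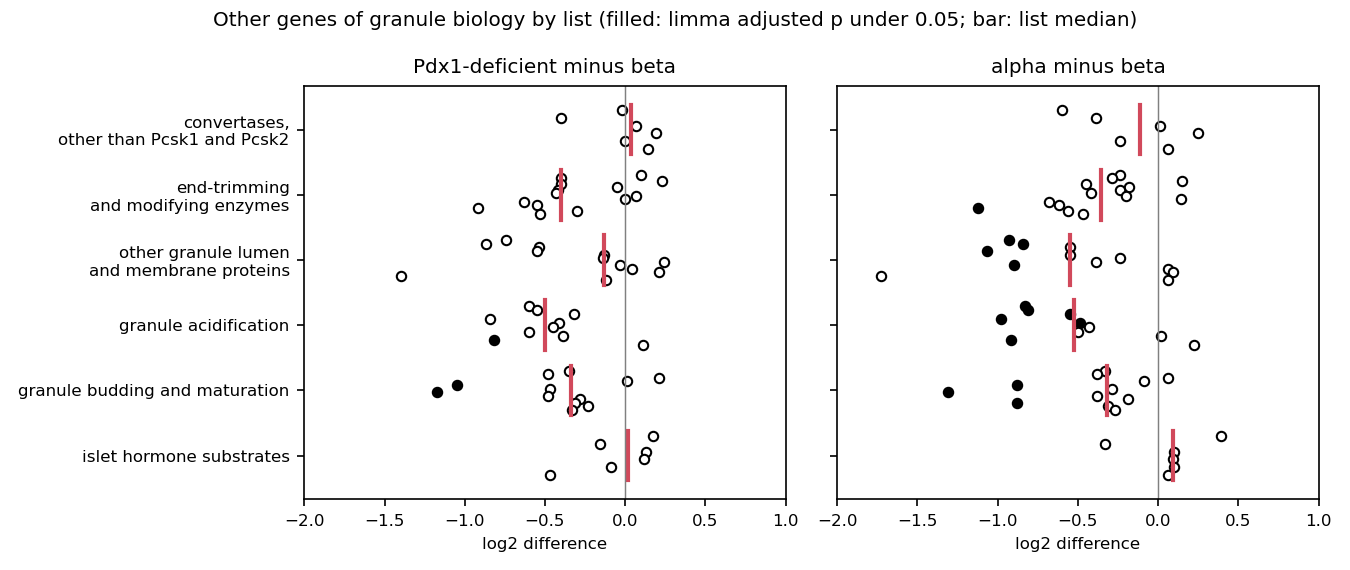
Log2 differences from beta cells (x axis) of 60 measured genes by list (rows), for Pdx1-deficient cells (left) and alpha cells (right), which share the same beta arrays; filled points passed an adjusted p under 0.05 and the bar is the list median. All filled points, 3 on the left and 14 on the right, lie below 0.

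The number of listed genes past the threshold moved with single arrays. In Pdx1-deficient against beta cells it was 0 without Pdx1-deficient replicate 2, 4 or 5 or beta replicate 1, 4 or 5. It was 1 without beta replicate 3, 2 without alpha replicate 4, and 6 without Pdx1-deficient replicate 1, where 2.75% of all genes passed. The count over all genes moved too, from 0 to 548 over the single arrays left out. In alpha against beta cells the number of listed genes was 4 to 8 without beta replicate 1, 2, 3, 4 or 5 or alpha replicate 1, 3, 4 or 5. Without alpha replicate 2 it was 17, of which 16 were lower and 1, Gcg, was higher, where 7.17% of all genes passed. The count over all genes ran from 328 to 1430 in that comparison. When the values were quantile normalized again 0 and 5 listed genes passed, all lower. Over all genes that normalization also changed the split of calls: 2 of 4 calls were higher in Pdx1-deficient cells, against 32 of 217 without it, and 42.2% of 483 in alpha cells, against 22.1% of 806.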

How the data were processed

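Biotin-labelled cDNA from 15 samples, 5 per group, was read on Affymetrix Mouse Gene 1.0 ST arrays. The deposited values are log2 signals, 1 per transcript cluster and array, made by the authors with Affymetrix Expression Console, per the submitters' processing notes. That the base is 2 was taken from their range of 2.11 to 13.45; fold changes hold only if it is. How probes were summarized and background-corrected, and on which build, is not given in the sources used here.

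Of 35556 clusters, 21789 had 1 gene symbol, 1621 several and 12146 none. Gene IDs of 21698 were matched to the RefSeq gene table (GRCm38.p6), with 0 symbols changed. Each of 19938 genes was represented by its cluster with the highest mean; 999 genes had several. Groups came from the titles. Differences were tested with limma 3.58.1 in R 4.3.3 (lmFit and eBayes, 3 group means over 15 arrays, no block), checked on simulated data, with Benjamini-Hochberg adjustment over all genes. The number of arrays limits the precision.

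The genes and lists were chosen with earlier results of these data known. Pathway genes were named by 1 rule: in each list and comparison, those past the threshold (at most 3, by smallest adjusted p) or otherwise up to 2 with the largest difference. Pdx1 was named as the deleted gene. Values named for arrays or settings, and the lists' genes named under other settings, were chosen after their values were seen. So were Ndst4, Irx1, Irx2, Pou3f4, Slc2a2, Ttr, Slc7a2 and Etv1. Alternatives were each array left out, both doubtful arrays left out, a replicate block, array weights, trended robust moderation, realigned medians, renewed quantile normalization, dim genes removed, only the groups compared, and the mean over clusters. A planned comparison of Pcsk2 with Pcsk1 was not run, since Pcsk2 was not analysed here.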

Additional observations from a re-analysis of the deposited data

Results flagged for a closer look

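Dixon's test at the 95% level was run in each group of 5 arrays for the 9 genes and Pdx1, 30 groups in all, of which 2 passed; chance gives about 1 in 20. Chga read 12.58 in alpha replicate 2, above the other alpha arrays at 11.96 to 12.06, with a gap of 0.829 of the group's range against a critical value of 0.71. Scg5 read 11.06 in alpha replicate 1, below the other alpha arrays at 11.35 to 11.40, with a gap of 0.869 of the range. Pcsk1 in alpha replicate 2, at 11.07 beside 7.59 to 9.08, did not pass the test.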

How the results depend on the processing

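Of the 9 genes 0 passed between Pdx1-deficient and beta cells in every one of the 24 alternatives. Between alpha and beta cells 3 of 9 passed, and 1 with only these groups fitted, 1 with the replicate number as a block, 5 with array weights and 5 without both doubtful arrays. Between Pdx1-deficient and alpha cells 0 passed, and 2 without both doubtful arrays. Leaving out each array in turn gave 0 to 0, 0 to 5 and 0 to 2 in these comparisons. Listed pathway genes numbered 3 for Pdx1-deficient against beta cells, and 5 with array medians aligned, 0 after quantile normalization, 5 with dim genes removed, 1 with these groups only, 0 with the block and 10 without both doubtful arrays (0 to 6 over single arrays). For alpha against beta cells they numbered 14, and 5 after quantile normalization and 18 without both doubtful arrays (4 to 17). For Pdx1-deficient against alpha cells they numbered 0, and 2 without both doubtful arrays (0 to 1). Over all genes 217 passed for Pdx1-deficient against beta cells, and 121 with trended robust moderation, 4 after quantile normalization, 401 with dim genes removed, 89 with these groups only, 8 with the block and 626 without both doubtful arrays (0 to 548). The alpha against beta count was 806, and 483, 1316 and 1425 after quantile normalization, with array weights and without both doubtful arrays (328 to 1430). The Pdx1-deficient against alpha count was 0, and 1 with each of trended robust moderation, dim genes removed and array weights, and 177 without both doubtful arrays (0 to 145). Signs turned only for uncalled genes of Pdx1-deficient against beta cells: after quantile normalization Cpe was 0.03, Chgb 0.06 and Resp18 0.13, Resp18 was 0.05 with array weights and 0.04 without both doubtful arrays, and Pcsk1n was -7.8e-05 with medians aligned. Over single arrays Pcsk1n ran from -0.07 to 0.15 and Resp18 from -0.07 to 0.04. The causes were not tested. Samples with the same replicate number were not treated as pairs (correlations of their deviations -0.17 to 0.22, over 0.1 in 5 of 15 pairs), by the rule used here, which asks for every pair over 0.1. Between alpha and beta cells all 5 pairs were above 0, and whether the numbers mark shared animals or days is not known. With the block Pcsk1 passed between alpha and beta cells (limma adjusted p = 0.0255), and Chga (0.0615) and Scg3 (0.0529) did not. The planned comparison of Pcsk2 with Pcsk1 was not run.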
